A study of Bos taurus with 8 samples.

Results

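The nuclear-encoded subunits of the mitochondrial respiratory chain and of ATP synthase were followed in lactating bovine mammary gland. A gene was a member if its only annotated symbol began with NDUF, UQCR, ATP5 or SDH followed by A to D, followed the COX pattern of the cytochrome c oxidase subunits COX4 to COX8 with a letter, or was CYC1 or CYCS. The rule found 88 of 9155 genes, measured by 115 of 24016 probe sets, and each gene was read from its probe set with the highest mean over the 8 arrays. Of the 88 members, 40 belong to complex I, 8 to complex II, 9 to complex III, 14 to complex IV and 17 to complex V, which is ATP synthase. NDUFA4 is counted under complex IV, of which it is a subunit despite its name, and 8 members are assembly factors. Cytochrome c itself (CYCS) had no probe set with a single symbol.

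Total RNA came from biopsies of lactating mammary gland of 4 Holstein cows, with 1 Affymetrix bovine array per biopsy. Each cow gave a full sample, 12 h after milk removal, and an empty sample, 0 h after milk removal, so every comparison was made within a cow. The labels name no genetic alteration or drug in either group. The labels do not say which sample of a cow was taken first or from which gland. The 8 arrays had medians between 7.08 and 7.24 log2 units, and the small number of cows limits the precision. The full arrays of cows 2 and 4 stood apart, with a median correlation to the other arrays of 0.969 and 0.975, where the other 6 arrays had 0.986 or 0.987. The results that rest on these arrays are therefore also given without them.

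The respiratory chain passes electrons from NADH and succinate to oxygen and pumps protons across the inner mitochondrial membrane, and ATP synthase lets them flow back to make ATP. Complex I oxidises NADH, complex II oxidises succinate, complex III passes the electrons from ubiquinol to cytochrome c, and complex IV hands them to oxygen. The secretory cells of a lactating gland use this ATP to make and export milk protein, lactose and fat. Most subunits are encoded in the nucleus and imported, while a few are encoded by mitochondrial DNA. A biopsy mixes cell types, so fewer cells of a type and less RNA per cell cannot be told apart.

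In the full gland 80 of the 88 members (90.9%) had a lower mean than in the empty gland, where 51.4% of all genes did. The median difference of the members, full minus empty, was -0.11 log2 units, against -0.0036 over all genes. Of the members 83 lay above the median probe set level. Among all 6200 genes above it, here called brighter genes, 56.3% had a lower mean and the median was -0.019. No member passed the test: with limma, p adjusted by Benjamini-Hochberg over every probe set ranged from 0.993 to 1, and 0% of the probe sets passed at 0.05. At an unadjusted p under 0.05 there were 0 members by limma, against 2.8% of all genes, and the lowest unadjusted p of a member by limma was 0.0532. Each member's 95% confidence interval included 0, so no single member was shown to differ between the states.

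**Figure D1:**
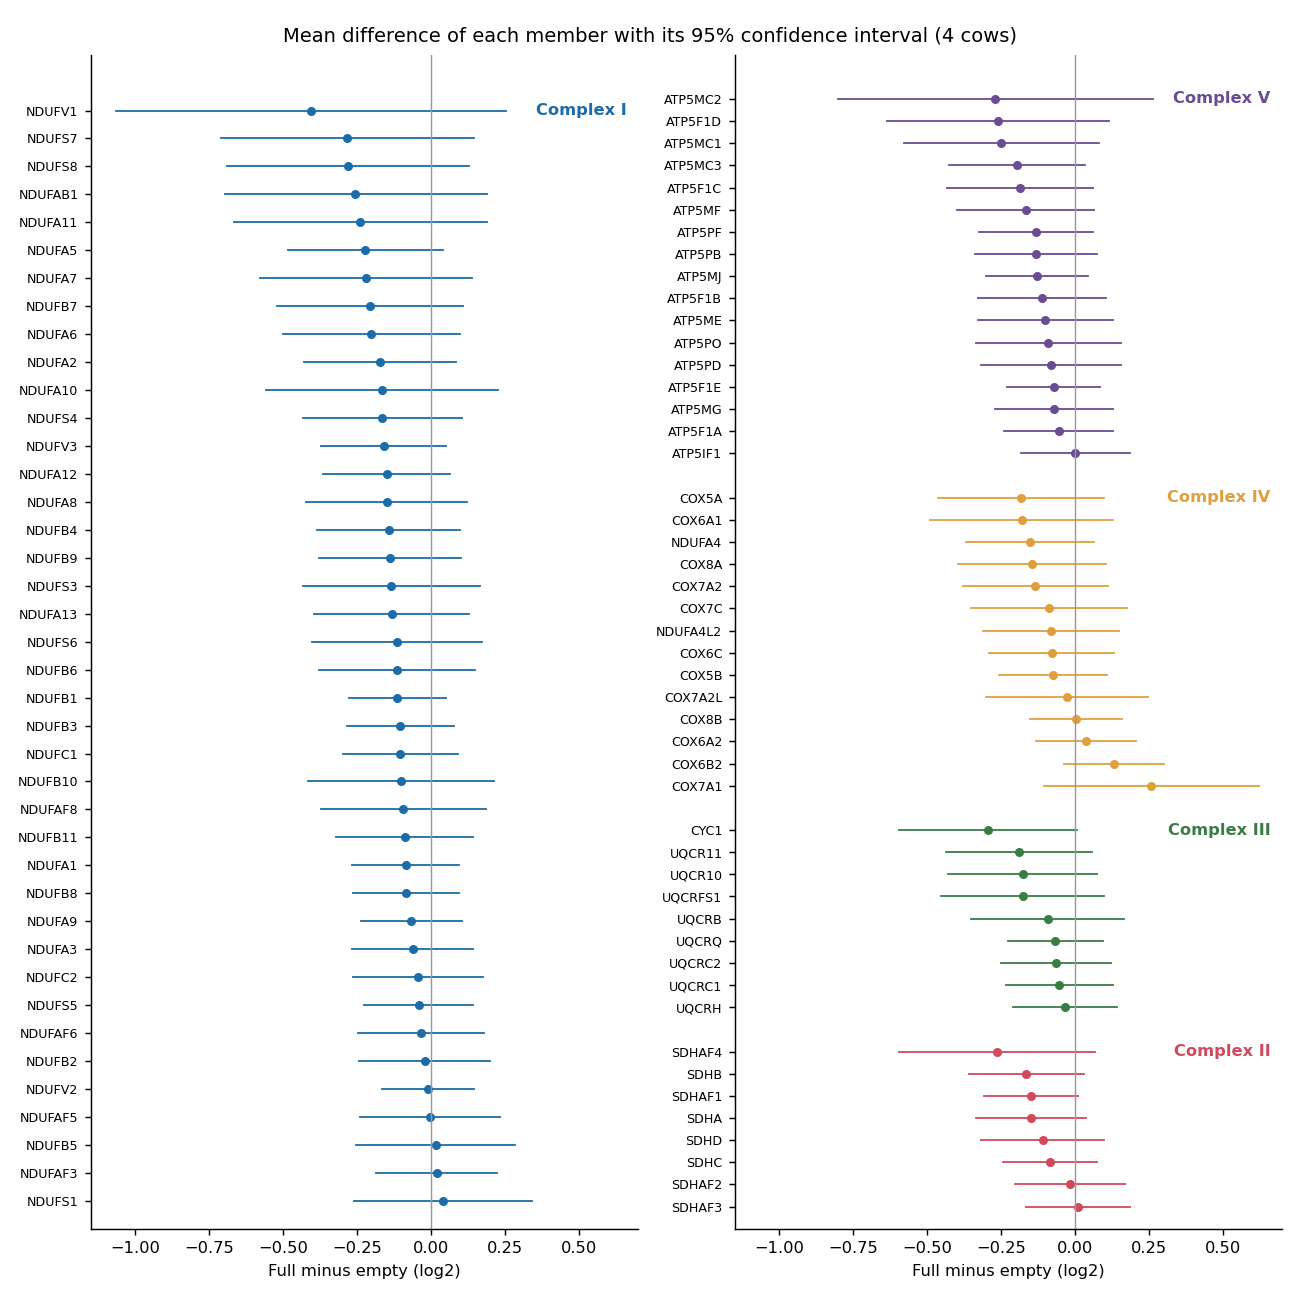
Mean full minus empty difference of each of the 88 members on the log2 scale (x axis), with limma's 95% confidence interval over 4 cows, ordered within complexes I to V. Most points lie left of 0, from NDUFV1 at -0.41 to COX7A1 at 0.26, and every interval includes 0.

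The differences came mainly from 2 of the 4 cows. In cow 1 the median member difference was 0.014 log2 units and 39 of 88 members were lower in the full sample. In cow 2 it was -0.31 with 74 members lower. In cow 3 it was 0.014 with 35 members lower. In cow 4 it was -0.20 with 79 members lower. All genes had medians of -0.052 and 0.029 in cows 1 and 2 and of -0.020 and 0.017 in cows 3 and 4, so the members stood lowest against other genes in cows 2 and 4. Without cow 2 the median over the members was -0.055 and without cow 4 it was -0.088. With both left out it was 0.013, and 40 of the 88 members had a lower mean. When limma weighted the arrays by their fit, with 0.449 for cow 2 and 0.779 for cow 4 against 1.32 for cow 1 and 2.16 for cow 3, the median was -0.058.

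**Figure D2:**
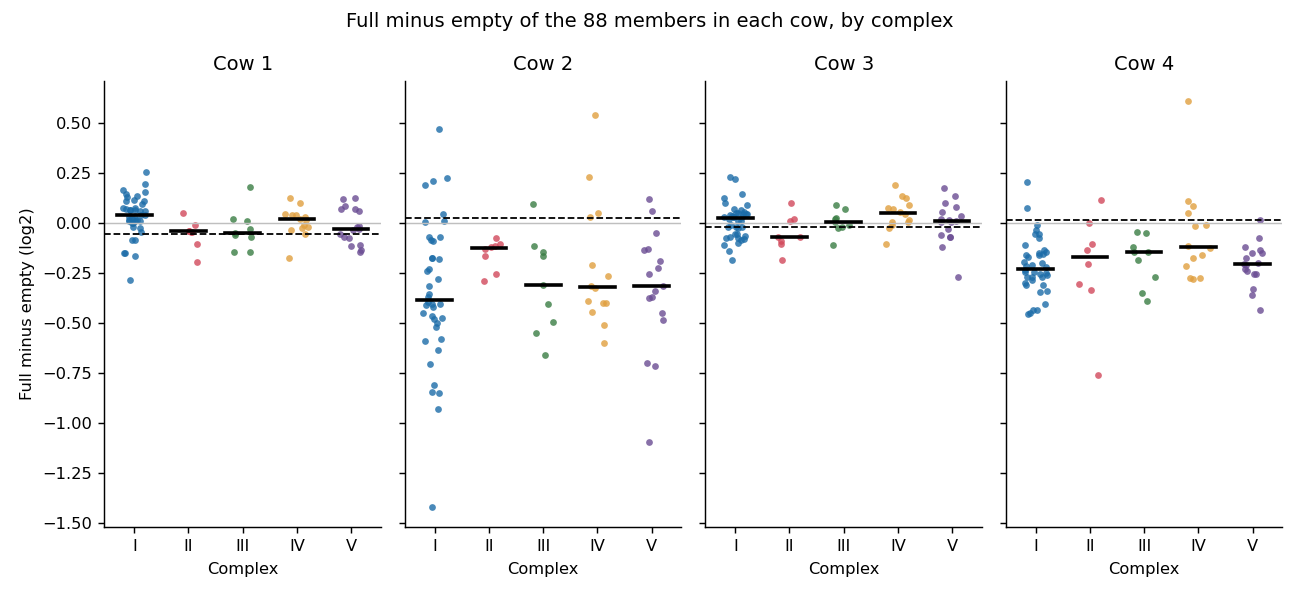
Full minus empty difference (log2, y axis) of every member in each cow, with 1 point per gene, grouped by complex. Solid bars are medians by complex and the dashed line is the median of all genes; in cows 2 and 4 every complex has its median below 0, from -0.38 for complex I in cow 2 to -0.12.

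The full sample of cow 2 gave the lowest of the 8 values for 59 of the 88 members (67%), against 23.4% of all genes. The full sample of cow 4 gave the lowest value for another 22 members (25%), against 16.1% of all genes. The highest values lay mostly with the full samples of cow 1 (26 members) and cow 3 (26 members) and the empty sample of cow 3 (16 members). These were 29.5%, 29.5% and 18.2% of the members, against 13.2%, 9.18% and 10.6% of all genes. The full group was thus the more spread out: its SD exceeded the SD of the empty group for 79 members (89.8%), against 75.2% of all genes. The median SD of a member was 0.24 log2 units in the full group and 0.093 in the empty group. Over all genes these medians were 0.20 and 0.13, so the full group was wider there too.

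**Figure D3:**
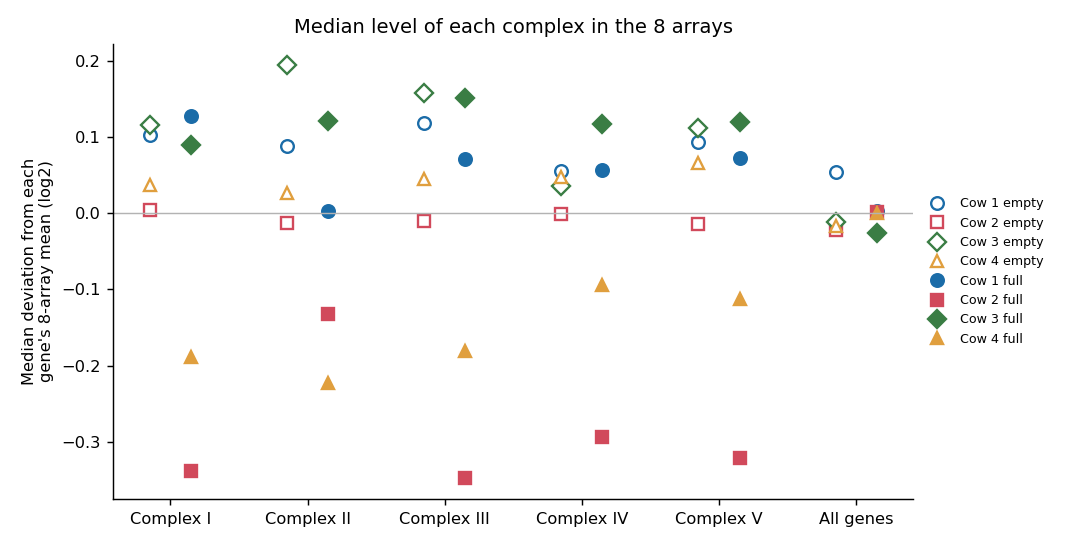
Median deviation of the members of each complex from their 8-array means (log2, y axis), for each array, with open symbols for empty and filled symbols for full samples. The full samples of cow 2 and cow 4 lie below the other 6 arrays in every complex, while the medians of all genes lie between -0.026 and 0.054.

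The members' differences in cows 2 and 4 correlated at r = 0.49 over the 88 members, and those of cows 2 and 3 at r = -0.52. Over all 9155 genes the same pairs of cows gave r = 0.46 and r = -0.32. These are descriptions across genes, which are not independent replicates, and each point shares its arrays and their normalization with the others. A difference below -0.5 log2 units was seen for 18 members in cow 2 (20.5%, against 6.78% of all genes). In cow 4 it was seen for 1 member (1.14%, against 2.59% of all genes). In cows 1 and 3 it was seen for 0 members, against 1.87% and 0.644% of all genes. The reading for cow 4 depends on the limit. A difference below -0.3 was seen for 17 members in cow 4 (19.3%, against 9.3% of all genes). In cow 2 such a difference was seen for 45 members (51.1%, against 15.2%), and in cows 1 and 3 for 0 members (against 9.16% and 4.46%).

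Complex I is built of core subunits, some of which carry the flavin and the iron-sulphur clusters, and of accessory subunits around them. Of its 40 members 37 had a lower mean in the full gland, and the median was -0.12 log2 units (0.041, -0.38, 0.027 and -0.23 for cows 1 to 4). None passed the test. The 6 core subunits had a median of -0.21, the 9 accessory subunits of the matrix arm -0.17 and the 20 of the membrane arm -0.10. The difference between these parts was not tested. Without cow 2 the median of complex I was -0.055.

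NDUFV1, the flavin-binding subunit that accepts electrons from NADH, had the lowest difference of all 88 members. Its level in the full samples of cows 1 to 4 was 9.24, 7.63, 9.27 and 8.68 log2 units, and in the empty samples 9.17, 9.05, 9.12 and 9.12. The 4 empty values lay close together, the full value of cow 2 stood lowest and that of cow 4 next, and the groups overlapped. The mean difference was -0.41 ± 0.27 (SE, n = 4 cows), a ratio of 0.755, with limma's 95% confidence interval from -1.06 to 0.25. Without cows 2 and 4 it was 0.11.

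Core subunits did not all lie the same way in cow 2. NDUFV2, an iron-sulphur subunit that sits beside NDUFV1 at the NADH site, was at 11.05, 10.86, 11.02 and 10.92 in the full samples and 11.07, 10.86, 11.04 and 10.92 in the empty samples. The states of each cow lay close together, with a mean difference of -0.010 ± 0.063 (SE, n = 4 cows). NDUFS1, the largest iron-sulphur subunit, was at 9.67, 10.25, 9.86 and 9.59 in the full and 9.83, 9.78, 9.96 and 9.64 in the empty samples. Its value was higher in the full sample of cow 2 by 0.47 and lower in the other 3 cows, with a mean difference of 0.040 ± 0.12 (SE, n = 4 cows) and -0.10 without cow 2. This pattern held in the brightest NDUFS1 probe set only. The second, at a mean level of 7.65, gave 0.077, 0.19, -0.023 and -0.057 in cows 1 to 4. The third, at 6.29, gave -0.053, -0.295, 0.36 and 0.012. NDUFS7 and NDUFS8, subunits with iron-sulphur clusters near the quinone site, and NDUFV2 were singled out after their values were seen. NDUFS7 differed by -0.84 in cow 2 and NDUFS8 by -0.81, and their means were -0.28 ± 0.17 and -0.28 ± 0.17 (SE, n = 4 cows).

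Among the accessory subunits NDUFA5, a small subunit of the matrix arm, had the smallest unadjusted p of complex I. Its full values were 10.59, 10.13, 10.96 and 10.18 and its empty values 10.57, 10.55, 11.02 and 10.61. Cow 3 was high in both states, the full samples of cows 2 and 4 were low, and the groups overlapped. The difference was -0.22 ± 0.11 (SE, n = 4 cows), with limma's interval from -0.49 to 0.039. The second NDUFA5 probe set, at a mean level of 10.20, gave -0.21, -0.25, -0.045 and 0.048 in cows 1 to 4, so it was not lower in cow 4. The third, at 8.98, gave 0.032, -0.39, 0.037 and -0.15. Over the mean of its probe sets NDUFA5 was at -0.15. NDUFV3, an accessory subunit of the NADH module, had full values of 9.59, 9.15, 9.66 and 9.42 and empty values of 9.74, 9.55, 9.73 and 9.45. Its full minus empty difference lay between -0.39 and -0.031 in the 4 cows, and the groups overlapped. NDUFB1, a small subunit of the membrane arm, was likewise lower in each cow, at 8.65, 8.51, 8.69 and 8.60 against 8.73, 8.59, 8.77 and 8.81. The mean differences were -0.16 ± 0.086 for NDUFV3 and -0.12 ± 0.067 for NDUFB1 (SE, n = 4 cows). NDUFA12, another matrix arm subunit, differed by -0.15 ± 0.087.

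Complex II, succinate dehydrogenase, has 2 catalytic subunits and 2 membrane anchors, all encoded in the nucleus, and also serves the tricarboxylic acid cycle. Of its 8 members 7 had a lower mean, 5 of them in all 4 cows, with a median of -0.13 log2 units (-0.040, -0.12, -0.067 and -0.17 for cows 1 to 4). Without cows 2 and 4 the median was -0.054. None passed the test.

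SDHA, the flavoprotein that oxidises succinate, was at 11.05, 10.57, 11.08 and 10.74 in the full and 11.09, 10.86, 11.15 and 10.95 in the empty samples. SDHB, the iron-sulphur subunit, was at 10.48, 9.94, 10.41 and 10.03 in the full and 10.52, 10.19, 10.47 and 10.34 in the empty samples. Both were lower in the full sample of each cow, by little in cows 1 and 3 and by more in cows 2 and 4, and both were overall lower in cows 2 and 4 than in cows 1 and 3, so that the groups overlapped. SDHA differed by -0.15 ± 0.075 and SDHB by -0.17 ± 0.079 (SE, n = 4 cows). Of the anchors, SDHC was at 10.84, 10.84, 11.06 and 10.80 in the full and 10.87, 10.91, 11.16 and 10.93 in the empty samples, lower in every cow, and SDHD differed by -0.11 ± 0.084.

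The assembly factors of complex II put the flavin and the iron-sulphur clusters in place. SDHAF4, which helps join the flavinated SDHA to SDHB, was at 7.72, 8.00, 8.43 and 7.42 in the full and 7.83, 8.11, 8.52 and 8.18 in the empty samples. It differed by -0.10, -0.10 and -0.087 in cows 1 to 3 and by -0.76 in cow 4, and the levels of the cows were further apart than these first 3 differences. SDHAF1, which serves the iron-sulphur clusters of SDHB, had differences between -0.19 and -0.10 in the 4 cows and a mean difference of -0.15 ± 0.064 (SE, n = 4 cows). Its other probe set, at nearly the same level, gave 0.019, -0.60, 0.11 and -0.16 in cows 1 to 4, so it was not lower in cows 1 and 3. SDHAF3 differed by 0.0090 ± 0.071, lay the other way under both other scalings tried, and was the member with the smallest p between cows.

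**Figure D4:**
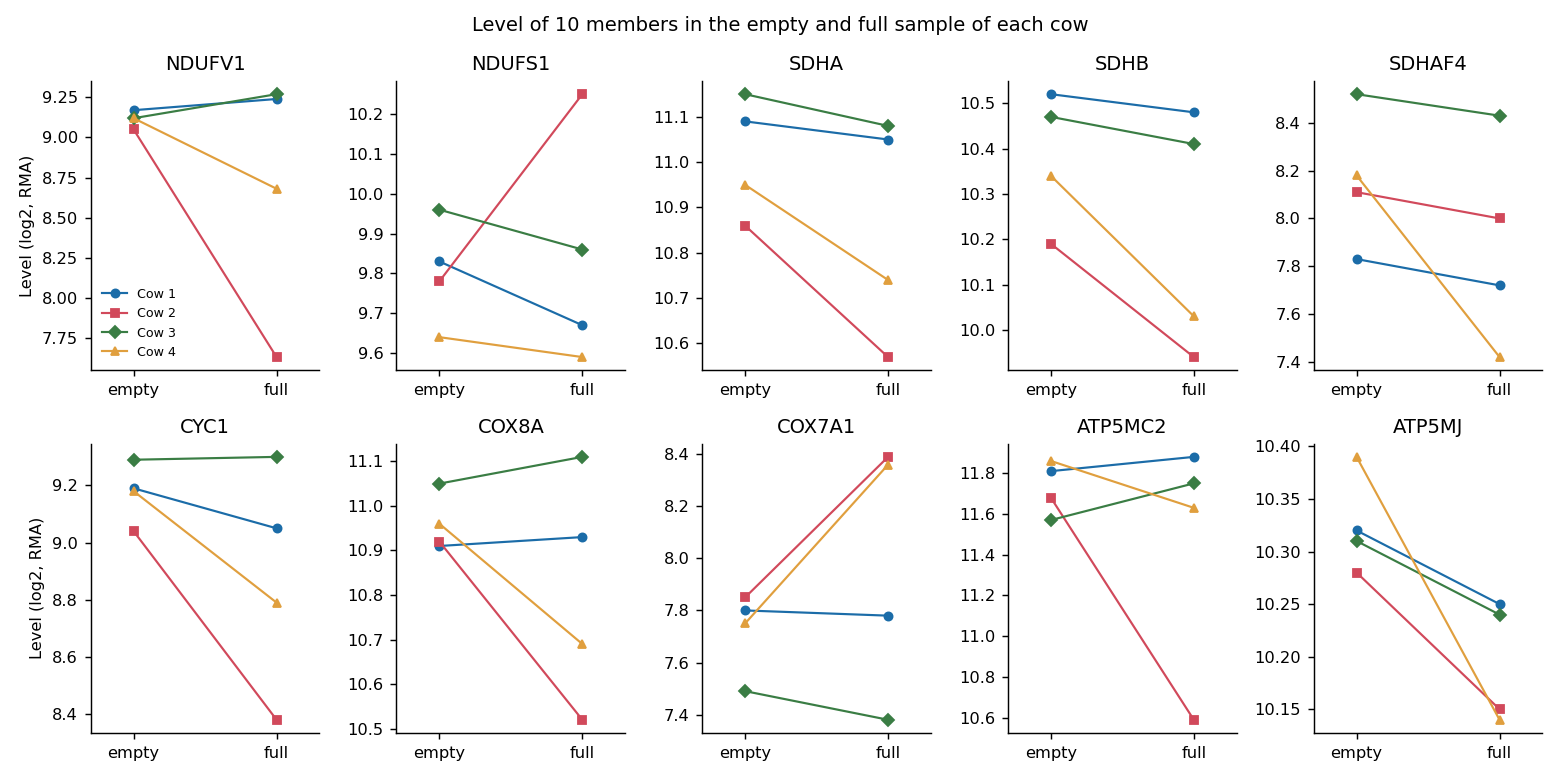
Level of 10 members (log2, y axis, scaled separately for each gene) in the empty and the full sample of each cow, with lines joining the samples of a cow. Lines of cows 2 and 4 slope most in most panels; SDHA, SDHB, SDHAF4 and ATP5MJ are lower in the full sample of all 4 cows, while COX7A1 is higher in cows 2 and 4.

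Complex III takes electrons from ubiquinol through the Rieske protein and cytochrome c1. Its 9 members had a median of -0.093 log2 units (-0.047, -0.31, 0.0078 and -0.15 for cows 1 to 4), and all 9 had a lower mean, of which UQCRH at -0.035 turned to 0.0032 when quantile normalization was repeated. None passed the test, and without cow 2 the median was -0.054.

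CYC1, cytochrome c1, had the smallest unadjusted p of the 88 members. It was at 9.05, 8.38, 9.30 and 8.79 in the full and 9.19, 9.04, 9.29 and 9.18 in the empty samples. The full samples of cows 2 and 4 were the lowest, cow 3 did not separate its states, and the groups overlapped. The difference was -0.30 ± 0.12 (SE, n = 4 cows), a ratio of 0.815, with limma's 95% interval from -0.60 to 0.0057. UQCRFS1, the Rieske iron-sulphur protein, was at 10.96, 10.31, 11.13 and 10.79 in the full and 11.00, 10.86, 11.10 and 10.93 in the empty samples, with cow 2 furthest apart. Its mean difference was -0.18 ± 0.11. The small accessory subunits UQCR10 and UQCR11 differed by -0.18 ± 0.10 and -0.19 ± 0.10. The core proteins UQCRC1 and UQCRC2, which carry no redox centre, differed by -0.054 ± 0.073 and -0.064 ± 0.075 (SE, n = 4 cows).

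Complex IV, cytochrome c oxidase, has nuclear subunits that exist as isoforms, with a liver-type form of wide expression and a heart and muscle form. Of its 14 members 10 had a lower mean, and the median was -0.081 log2 units (0.020, -0.32, 0.051 and -0.12 for cows 1 to 4). None passed the test, and the median was -0.013 without cow 2 and 0.030 without cows 2 and 4.

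The 3 liver-type isoforms had lower means and the 3 heart and muscle isoforms did not. COX6A1 differed by -0.18 ± 0.13, COX7A2 by -0.14 ± 0.099 and COX8A by -0.15 ± 0.10, against 0.037 ± 0.068 for COX6A2, 0.26 ± 0.15 for COX7A1 and 0.0016 ± 0.063 for COX8B (SE, n = 4 cows). Without cow 2 the liver-type values were -0.042, -0.033 and -0.065 in the same order, and COX6A1 was at -0.0067 over the mean of its probe sets. Without cows 2 and 4 the contrast was not kept. The liver-type values were then 0.044, 0.0066 and 0.038, and COX6A2, COX7A1 and COX8B were at 0.053, -0.0625 and -0.0084. The difference between the isoform groups was not tested. COX8A was at 10.93, 10.52, 11.11 and 10.69 in the full and 10.91, 10.92, 11.05 and 10.96 in the empty samples, low in the full samples of cows 2 and 4 alone. COX7A1 was at 7.78, 8.39, 7.38 and 8.36 in the full and 7.80, 7.85, 7.49 and 7.75 in the empty samples. It was high in those same full samples, by 0.54 in cow 2 and 0.61 in cow 4, slightly lower in the full samples of cows 1 and 3, and overlapped between groups.

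COX8B lay between 10.17 and 10.27 in all 8 arrays, while its other probe set lay at a mean of 5.95. COX6A2 lay between 5.61 and 5.88, near the lowest value of any probe set, 4.98. COX6B2, the testis isoform of subunit VIb, was the 1 member higher in the full sample of all 4 cows (1.14%, against 3.59% of all genes). It was at 6.12, 6.29, 5.99 and 6.15 in the full and 6.07, 6.06, 5.86 and 6.04 in the empty samples, a difference of 0.13 ± 0.068 at a level likewise near the low end. Of the skeletal muscle markers 6 of 11 had a lower and 5 a higher mean, with a median of -0.0018. In cow 4 their summed level was 12.52 in the full against 11.96 in the empty sample, and their median difference was 0.064. DES was higher there by 2.94, ACTA1 by 1.77 and CKM by 0.55, and MYH1, MYH7 and TNNT1 were also higher. NEB differed there by -0.37, TNNC2 by -0.25, MB by -0.15, MYL1 by -0.12 and TNNT3 by -0.073. NEB was lower in all 4 cows, with a mean difference of -0.64 ± 0.16 (SE), and did not pass the test. In cow 2 the summed level was 12.23 in the full against 12.29 in the empty sample. Over all cows the summed level was 12.09 to 12.52 log2 units in the full and 11.96 to 12.29 in the empty samples. Their part in the COX7A1 values was not tested.

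Of the remaining members, COX5A, a matrix-side subunit, was at 11.76, 11.09, 11.85 and 11.44 in the full and 11.81, 11.60, 11.76 and 11.71 in the empty samples. The full samples of cows 2 and 4 were again the lowest, and the difference was -0.18 ± 0.11 (SE, n = 4 cows). NDUFA4 differed by -0.15 ± 0.088 and its paralogue NDUFA4L2, known as a target of hypoxia, by -0.082 ± 0.094. COX7A2L, which takes part in joining complexes III and IV into supercomplexes, differed by -0.40 in cow 2 and by 0.042, 0.19 and 0.055 in cows 1, 3 and 4. Its mean was -0.028 ± 0.11, and 0.096 without cow 2.

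ATP synthase couples a membrane part with the c ring, through which protons pass, to the catalytic F1 part. All 16 of its structural members had a lower mean, with a median of -0.13 log2 units, and none passed the test. The inhibitor ATP5IF1, which blocks hydrolysis of ATP when the membrane potential is lost, was at 11.58, 11.54, 11.43 and 11.44 in the full and 11.45, 11.48, 11.50 and 11.56 in the empty samples. Its difference was -0.0001 ± 0.075 (SE, n = 4 cows). The 17 members had medians of -0.030 and -0.31 in cows 1 and 2 and of 0.012 and -0.20 in cows 3 and 4. With cow 2 left out it was -0.089 over the other cows.

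The 3 genes of the c subunit, ATP5MC1, ATP5MC2 and ATP5MC3, encode the same mature protein with different import sequences. ATP5MC2 was at 11.88, 10.59, 11.75 and 11.63 in the full and 11.81, 11.68, 11.57 and 11.86 in the empty samples. Its full sample of cow 2 stood far below the others, at a difference of -1.09 from the empty sample, and its mean difference of -0.27 ± 0.22 turned to 0.0047 without cow 2. ATP5MC1 was at 8.37, 7.76, 8.63 and 8.03 in the full and 8.51, 8.46, 8.55 and 8.28 in the empty samples, lower in cows 1, 2 and 4. ATP5MC1 differed by -0.25 ± 0.13 and ATP5MC3 by -0.20 ± 0.093 (SE, n = 4 cows).

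In F1 the gamma subunit ATP5F1C, the rotating shaft, was at 12.34, 11.76, 12.45 and 12.16 in the full and 12.42, 12.24, 12.44 and 12.36 in the empty samples. It was lower in cows 1, 2 and 4, with a difference of -0.19 ± 0.10 (SE, n = 4 cows). ATP5MJ, a small proteolipid of the membrane part, was the 1 member of 88 whose groups did not overlap. Of all 9155 genes 33 (0.36%) had full values all below the empty ones, and 32 had them all above. ATP5MJ was at 10.25, 10.15, 10.24 and 10.14 in the full and 10.32, 10.28, 10.31 and 10.39 in the empty samples. The difference was small, -0.13 ± 0.070 (SE, n = 4 cows), a ratio of 0.914, with limma's 95% interval from -0.30 to 0.041.

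Counted over cows, 12 members (13.6%) were lower in all 4 full samples, against 7.11% of all genes and 508 of 6200 brighter genes. They were NDUFB1 and NDUFV3 of complex I, SDHA, SDHB, SDHC, SDHAF1 and SDHAF4 of complex II, UQCR10 and UQCRQ of complex III, and ATP5F1E, ATP5MJ and ATP5PF of ATP synthase. For SDHAF1 and NDUFB1 this held in the brightest probe set only, and the other probe set of NDUFB1, at a mean level of 5.79, was higher by 0.29 in cow 2. The count was 6 when each array was centred on its own median, 25 without cow 1 and 26 without cow 3. The 8 assembly factors among the members had lower means in 6 cases, with a median of -0.026.

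Where a gene had several probe sets they could disagree. Of the 88 members 24 had more than 1 probe set, and 6 of these had a probe set of the opposite sign: ATP5F1D, COX6A1, COX6C, COX8B, NDUFA11 and NDUFAF3. ATP5F1D, the delta subunit of F1, differed by -0.26 ± 0.15 in its brightest probe set, at a mean level of 10.10, and by 0.13 ± 0.13 in the other, at 7.79. In cow 2 these probe sets gave -0.71 and 0.47. For ATP5F1B, the catalytic beta subunit, cow 2 gave 0.12 in the brightest probe set and -0.86 in the next. For NDUFB2, a membrane arm subunit, cow 2 gave 0.23 and -0.61. For these 3 genes the probe sets differed in cow 2 by more than the mean difference of any member.

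Cow 2 was also where the platform's own end controls stood apart. The actin pair of the platform was dim and was left out. Over 5 control transcripts the 5′ probe set minus the 3′ probe set averaged -1.91 log2 units in the full sample of cow 2 and between -1.23 and -0.76 in the other 7 arrays. For GAPDH the 5′ probe set was at 8.85 in that sample and at 10.18 in the empty sample of cow 2, while the 3′ probe set was at 12.16 and 11.96. With this 5′ minus 3′ average as a covariate the median over the members was -0.098 and 83 of 88 had a lower mean, and none passed the test. At an unadjusted p under 0.05 there were then 3 of 88 members by limma, CYC1, NDUFV1 and ATP5MC1, against 4.85% of all genes in the same fit.

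**Figure D5:**
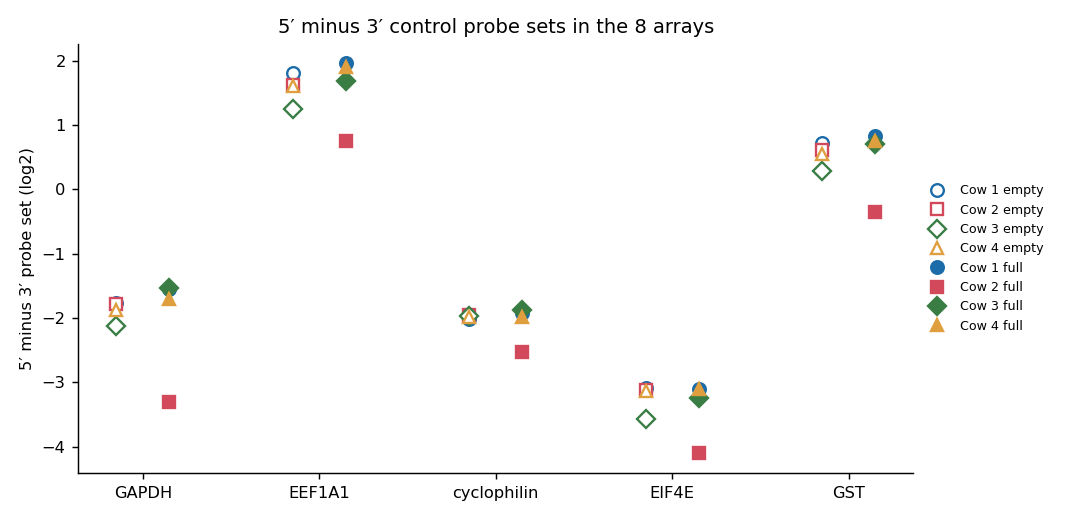
Difference between the 5′ and the 3′ probe set (log2, y axis) of 5 control transcripts in the 8 arrays, with open symbols for empty and filled symbols for full samples. The full sample of cow 2 is lowest for each of these 5 controls, at -3.31 for GAPDH where the other arrays lie between -2.13 and -1.53. The actin pair was left out.

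Markers of some other cell types had higher medians in the full samples of cows 4 and 2 and lower ones in those of cows 1 and 3. Of the fibroblast and matrix markers 10 of 11 had a higher mean in the full gland, with medians of -0.39, 0.17, -0.091 and 0.65 for cows 1 to 4. Of the myoepithelial markers 9 of 9 had a higher mean, with medians of -0.010, 0.18, -0.15 and 0.67. Of the myeloid markers 7 of 8 did, with -0.26, 0.26, -0.15 and 0.75, and of the lymphocyte markers 8 of 9, with -0.18, 0.37, -0.071 and 0.46. None of these markers passed the test. The summed level of the fibroblast and matrix markers was 14.62 to 15.78 in the full and 14.69 to 15.26 in the empty samples. The summed levels in the full and the empty samples were 13.70 to 14.72 and 13.81 to 14.17 for myoepithelial, 11.62 to 12.22 and 11.76 to 11.94 for myeloid, and 10.27 to 11.05 and 10.35 to 10.62 for lymphocyte markers. The 10 luminal secretory markers, which define the labelled tissue, had 5 lower and 5 higher means and summed levels of 16.62 to 16.72 in the full and 16.62 to 16.73 in the empty samples. Their sum rests mainly on the brightest, such as PAEP at a mean level of 14.39. The highest value of any probe set was 14.43. In cows 2 and 4 KRT18 differed by 1.19 and 1.36, KRT8 by 0.11 and 1.21 and EPCAM by 0.81 and 0.23. In the same cows ELF5 differed by -0.29 and -0.17. The medians of the 10 luminal markers were 0.057, -0.025, 0.0017 and -0.0035 for cows 1 to 4. Adipocyte markers were lower in 5 of 6 cases, with medians of -0.13, -0.20, -0.062 and -0.045 for cows 1 to 4. Endothelial markers were lower in 5 of 7, with -0.12, -0.42, 0.16 and 0.12. RMA values have no true 0, so no marker can be called absent, and the part of these markers in the members' differences was not tested.

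The animals were compared by an F-test in limma on the terms for cow, which asks how far the 4 animals differed whatever the state. No member passed it, against 0.481% of all genes, and the lowest adjusted p of a member was 0.232, for SDHAF3. At an unadjusted p under 0.05 there were 10 members by limma (11.4%), against 16.9% of all genes. SDHAF3, an assembly factor of complex II, averaged 7.26, 6.75, 6.89 and 7.02 log2 units in cows 1 to 4, with both samples of cow 1 above those of the other cows. NDUFA5 averaged 10.58, 10.34, 10.99 and 10.40, high in cow 3. SDHB averaged 10.50, 10.07, 10.44 and 10.19 and SDHA 11.07, 10.71, 11.11 and 10.85, both low in cow 2. NDUFA9, an accessory subunit near the quinone site, averaged 9.71, 9.51, 9.85 and 9.47, and SDHAF4 7.78, 8.06, 8.48 and 7.80.

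Genes that work beside the complexes were read from lists. COX4I1, the subunit of complex IV that the name rule leaves out, differed by -0.083 ± 0.077 (SE, n = 4 cows). Of 21 measured assembly factors outside the name rule 17 had a lower mean, with a median of -0.11. Among them BCS1L, which inserts the Rieske protein into complex III, differed by -0.19 ± 0.085. Of 15 measured genes of the tricarboxylic acid cycle and pyruvate dehydrogenase 12 had a lower mean, with a median of -0.10. PDHA1, the catalytic alpha subunit of pyruvate dehydrogenase, differed by -0.18 ± 0.075, and IDH3A, of the NAD-dependent isocitrate dehydrogenase, by 0.37 ± 0.22. No gene of these lists passed the test in either direction.

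Of 12 measured regulators of mitochondrial biogenesis 8 had a lower mean, with a median of -0.056, and none passed. PPARGC1A, a coactivator of respiratory gene transcription, differed by 0.090, -0.50, 0.15 and -0.66 in cows 1 to 4, and its mean difference was -0.23 ± 0.16 (SE, n = 4 cows). Its full samples of cows 2 and 4 were thus the lower ones, as for most members. Other regulators lay otherwise in cows 2 and 4, such as NRF1 at -0.023 and 0.37 and TFB1M at 0.82 and 0.054. The medians of the 12 regulators were -0.035, -0.11, -0.022 and -0.088 for cows 1 to 4. A link between any regulator and the members was not tested. Of 9 measured genes for adenylate and phosphate carriers, outer membrane channels and mitochondrial creatine kinases 7 had a lower mean, with a median of -0.046. The adenine nucleotide translocases lay apart in cow 2, with SLC25A4 at -0.37 and SLC25A5 at 0.38. Of 9 measured genes that feed electrons to ubiquinone or make it, 7 had a lower mean, with a median of -0.033. ETFB, of the electron transfer flavoprotein, differed by -0.20 ± 0.13. None of either list passed the test. The mitochondrially encoded subunits had no probe set with a matching symbol and were not analysed here.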

How the data were processed

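RNA from 8 biopsies (4 cows, full and empty) was measured on Affymetrix bovine arrays. The authors deposited log2 values from RMA (per the submitters' processing notes), a method that includes quantile normalization, so a shift shared by all genes cannot be seen. Per the labels' protocols, cDNA was primed with oligo(dT) on 2 ug of total RNA.

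Of 24128 probe sets 112 platform controls were left out. Of the 24016 tested, 13292 had 1 gene symbol, 86 several and 10638 none. The symbols of all 88 members matched RefSeq (ARS-UCD2.0). Members and lists were chosen with earlier results of these data known.

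limma 3.58.1 in R 4.3.3 (lmFit, eBayes, two-sided) fitted state and cow as fixed terms, with Benjamini-Hochberg adjustment over the 24016 probe sets and a threshold of 0.05. SEs are limma's moderated ones; the fit was tested on simulated data. Samples are paired by cow, per the descriptions. Deviations from the group means correlated within cows at r = 0.46, 0.32, 0.60 and 0.53 and between cows at -0.031 or below. The deviations within a state cancel out, so positive values within cows by themselves tend to make those between cows negative.

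Named genes were, per complex, the members with the smallest unadjusted p (4 lower and 2 higher) and those at the ends of the range. The catalytic subunits, the isoform groups and the 6 members with the smallest p between cows were also named. Others are given where probe sets disagree. NDUFV2, NDUFS7, NDUFS8, UQCRC1 and UQCRC2 are given outside this rule. Alternatives covered the block, scaling, a level filter, left-out cows, the prior, array weights, probe set choice and, chosen after seeing the data, the 5′ minus 3′ covariate. No genome or sequence table was used, so no coordinates or sequences are given.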

Additional observations from a re-analysis of the deposited data

Results flagged for a closer look

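In 6 of 114 groups of 4 values the highest or lowest value lay further from the others than Dixon's test allows at 95%; chance alone gives about 1 in 20. The empty sample of cow 3 stood out for NDUFA5 at 11.02 log2 units, where the other empty samples lay between 10.55 and 10.61. It also stood out for COX6B2 at 5.86, where the others lay between 6.04 and 6.07. The full sample of cow 3 was high for SDHC at 11.06, against 10.80 to 10.84. Cow 4 stood apart for the full minus empty difference of SDHAF4, at -0.759 against -0.104 to -0.0870, and of NDUFB1, at -0.211 against -0.0848 to -0.0819. Cow 2 stood apart for COX8B, at 0.0320 against -0.0095 to -0.0074.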

How the results depend on the processing

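Under each of the 13 other fits over all probe sets, 0 probe sets passed limma's test of full against empty (600 lay at an unadjusted p under 0.05 in the reported fit). The 80 members with a lower mean became 73 to 83, except that there were 71 among the 77 structural subunits and 40 without cows 2 and 4 together. The median over the members was -0.114 and became 0.0130 without those cows, and that of complex II became -0.0536. Array weights brought the median over the members to -0.0575, that of complex I from -0.116 to -0.0544, of complex IV from -0.0806 to -0.0247 and of complex V from -0.130 to -0.0687. Fitted with no replicate block, the members called were 0 and all 36 named genes kept their direction; a random block gave the same directions. Members at an unadjusted p under 0.05 by limma, 0 in the reported fit, were 1 with cow as a random block, with median centring, with repeated quantile normalization and with array weights, 3 with the 5′ minus 3′ covariate, and 0 to 2 with a cow left out (2 without cow 1). Members lower in every cow, 12 as reported, were 6 with median centring, 12 to 26 with a cow left out and 19 without cows 2 and 4; with fewer cows the criterion is easier to meet. Between cows 105 probe sets passed, against 208 with median centring, 248 with an intensity trend and robust prior, 286 with array weights, 1820 without cows 2 and 4, and 13 to 131 with a cow left out. Members differing between cows were 0, and 2 without cows 2 and 4 (NDUFA5 and SDHAF4).

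Without cows 2 and 4 the difference turned its sign for 13 named genes, to 0.0281 for ATP5IF1, 0.120 for ATP5MC2, 0.0214 for COX5A, 0.0443 for COX6A1, -0.0625 for COX7A1, 0.0066 for COX7A2, 0.116 for COX7A2L, 0.0384 for COX8A, -0.0084 for COX8B, -0.129 for NDUFS1, 0.113 for NDUFV1, 0.0031 for SDHD and 0.0467 for UQCRH. With a cow left out, the signs turned for ATP5IF1 (-0.0419 to 0.0393), ATP5MC2 (-0.418 to 0.0047), COX7A2L (-0.100 to 0.0957), COX8B (-0.0085 to 0.0053), NDUFAF3 (-0.0460 to 0.0763), NDUFS1 (-0.103 to 0.108) and SDHAF3 (-0.0217 to 0.0519). Array weights gave 0.0706 for COX7A2L, -0.0044 for COX8B, -0.0048 for NDUFAF3, -0.0531 for NDUFS1 and 0.0090 for UQCRH, and the 5′ minus 3′ covariate 0.0101, -0.0013, -0.0001 and -0.0010 for COX7A2L, COX8B, NDUFAF3 and NDUFS1. Median centring gave -0.0156 for COX8B and -0.0082 for SDHAF3, repeated quantile normalization 0.0141 for ATP5IF1, -0.0024 for SDHAF3 and 0.0032 for UQCRH, and the mean of all probe sets -0.0059 for COX8B. The cause of these turns was not tested. The precision rests on 4 cows with 1 array per state.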
